A study of Rattus norvegicus with 12 samples.

Results

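The interferon-induced genes described here are Mx1, Mx2, Irf1, Irf7, Ifit3, Oas1a, Gbp2, Ifitm1 and Ifi44, 9 of the 12978 named genes on the array. They were taken by gene symbol, a rule that uses no measured value, although the list was drawn up with earlier results of these data known, and each had exactly 1 named probe among the 22226 probes. The tissue was thoracic cord from Sprague-Dawley rats, all female and 10 weeks old, and each of the 12 Illumina arrays carried RNA combined from the rats of 1 genotype and condition. Mutant rats (G93A) had the SOD1 gene with the G93A mutation, which is used to model amyotrophic lateral sclerosis, and were killed 30 min, 4 h, 24 h or 7 days after mild compression of the cord or 30 min or 4 h after a sham operation. Wild-type littermates (WT) were taken after the same operations at the same times, which makes 6 pairs of pools. The sources used here give no promoter or copy number for the mutant gene, no disease signs and no number of rats per pool. Each genotype and condition is 1 pool without a replicate, so the p-values below measure the spread between these pools only. In the fits this spread is the change of the G93A minus WT difference between conditions. Technical variation and a genotype effect that differs between conditions cannot be told apart in it.

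Interferons are secreted proteins that cells release when sensors detect viral or misplaced nucleic acids. Type I interferons signal through Ifnar1 and Ifnar2 and interferon gamma through Ifngr1 and Ifngr2. The receptors use Janus kinases to activate STAT proteins, which enter the nucleus and switch on interferon-stimulated genes through the interferon-stimulated response element (ISRE) or the gamma-activated site (GAS). Irf1 and Irf7 are transcription factors of this response, Irf7 being the main driver of further type I interferon production. Mx1 and Mx2 are dynamin-like GTPases that block virus replication, Oas1a makes the oligoadenylates that activate RNase L, Ifit3 works in complexes that bind foreign RNA, Ifitm1 is a membrane protein that hinders virus entry, and Gbp2 is a GTPase that attacks membranes around intracellular pathogens. Ifi44 is named for its induction by interferon. In the injured cord, microglia, astrocytes and invading leukocytes are all known to express such genes.

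Promoter sequence was available for 7 of the 9 genes in a RefSeq table (build GRCr8) that holds 250 bases before and 50 bases after each gene's start. Both strands were searched for the ISRE core, which is GAAA, any 2 bases and GAAA again, and for the GAS, TTCNNNGAA, where N is any base. The ISRE core was present in 5 of the 7 windows (Irf7, Ifit3, Oas1a, Gbp2 and Ifi44), against 3.92% of all 33469 promoters. The GAS was present in 2 of the 7 (Irf1 and Oas1a), against 8.87% of all promoters. Mx1 held neither pattern in this window. The 150 bases before the start are shown for the 6 genes with a match, on the strand of the gene, because these are the sequences through which interferon signalling is known to act. Capitals mark the matched bases, and a match read on the opposite strand appears as TTTC, 2 bases and TTTC.
Irf1, chr10:38417785-38417934, plus strand: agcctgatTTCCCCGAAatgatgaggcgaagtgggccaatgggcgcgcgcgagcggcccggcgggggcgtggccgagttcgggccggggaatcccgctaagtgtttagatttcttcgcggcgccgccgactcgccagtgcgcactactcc
Irf7, chr1:205800024-205800173, minus strand: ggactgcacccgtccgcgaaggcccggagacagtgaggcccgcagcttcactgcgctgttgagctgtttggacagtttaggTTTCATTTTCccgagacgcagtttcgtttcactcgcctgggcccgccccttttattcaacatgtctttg
Ifit3, chr1:241527176-241527325, plus strand: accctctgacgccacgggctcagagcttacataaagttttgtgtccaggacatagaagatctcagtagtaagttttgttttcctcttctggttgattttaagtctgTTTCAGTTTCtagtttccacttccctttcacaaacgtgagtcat
Oas1a, chr12:41330316-41330465, plus strand: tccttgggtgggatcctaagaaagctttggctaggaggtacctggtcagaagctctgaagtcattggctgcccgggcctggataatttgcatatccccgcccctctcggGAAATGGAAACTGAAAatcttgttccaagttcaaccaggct
Gbp2, chr2:234005577-234005726, plus strand: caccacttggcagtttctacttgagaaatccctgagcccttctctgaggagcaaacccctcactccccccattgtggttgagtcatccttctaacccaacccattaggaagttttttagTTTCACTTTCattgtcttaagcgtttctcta
Ifi44, chr2:243303841-243303990, minus strand: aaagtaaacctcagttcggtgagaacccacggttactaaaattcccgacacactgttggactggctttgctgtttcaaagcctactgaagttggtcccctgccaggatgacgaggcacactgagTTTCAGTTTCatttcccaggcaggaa
The ISRE cores of Ifit3, Oas1a, Gbp2 and the upstream one of Ifi44 lay within 44 bases of the start, and that of Irf7 began 69 bases before it. Oas1a carried a pair of overlapping cores, GAAATGGAAA and GAAACTGAAA, which share 4 bases, and its GAS lay 199 to 191 bases upstream, outside the printed stretch. The GAS of Irf1, TTCCCCGAA, ran 142 to 134 bases upstream. A match describes letters and does not show that a factor bound there.

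**Figure D1:**
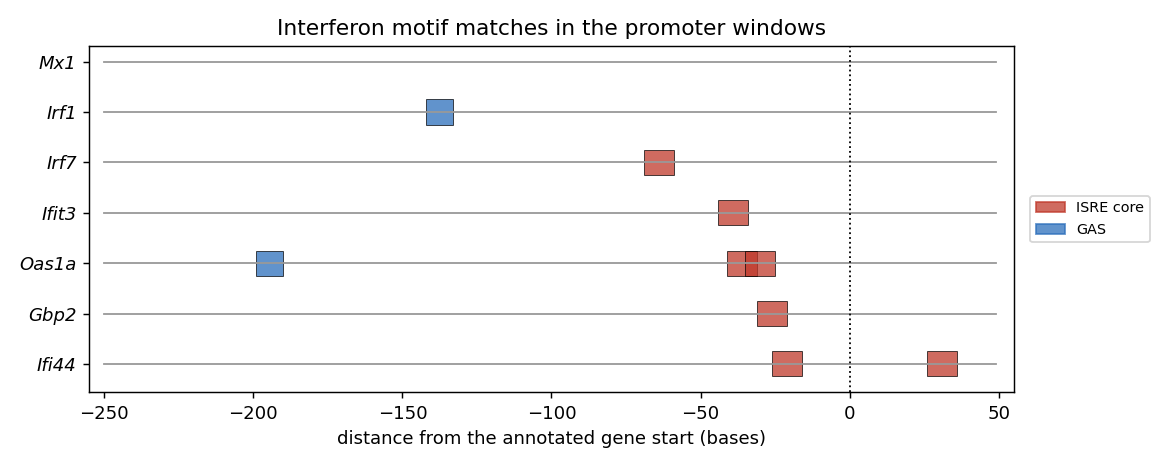
Positions of ISRE core (red) and GAS (blue) matches in the promoter windows of 7 interferon-induced genes, on an axis of bases from the annotated gene start (dotted line, upstream to the left). ISRE cores lie within 69 bases of the start in 5 genes, Irf1 has a GAS only, and Mx1 has no match.

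Values are background-subtracted bead signals, which can lie below 0, and log2 changes come from normalized signals fitted by limma over 13793 probes detected on at least 2 arrays. A probe was called when its p-value, adjusted by Benjamini and Hochberg over all of these probes, was under 0.05. The deposited probe identifiers did not stand beside their own values and were put in text order before joining, as inferred from the data, so every gene name given here rests on that order. The WT pool 30 min after injury had 41.3% of probes detected and the 11 others 49.6% to 53.8%, and this pool and its G93A partner differed at least 2-fold at 1064 probes, against 6 to 116 in the other pairs. Skeletal muscle markers summed to 1444 signal units in the WT sham pool of 4 h and 1215 in the WT injury pool of 30 min, against 82.7 to 498 in the 10 other pools. The Sod1 probe had signals of 5407 to 7440.4 in G93A pools and 5259 to 7949 in WT pools, and its G93A minus WT difference was -0.05 ± 0.10 (SE, adjusted p = 0.979 by limma). Whether this rat probe reads the mutant transcript was not tested. Whether the Mx and Oas1a probes also read closely related genes was not tested. Of the 9 interferon-induced genes, 8 were detected in all 12 pools and Ifi44 in 10.

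Against the mean of the sham pools of 30 min and 4 h, all 9 genes were called higher in the injured cord at 24 h and 8 of them at 7 d, where 11.4% of all probes were called higher at each time. Against the 4 h sham pools alone, Irf1 and Gbp2 were not called at either time and Ifi44 was not called at 24 h. Mx2 was 7.16-fold higher at 24 h and 8.29-fold at 7 d, Ifitm1 reached 11.7-fold at 7 d and Mx1 9.47-fold. Irf1 and Gbp2 had higher signals in every pool of 4 h after surgery, sham or injured, than in any pool of 30 min. No gene passed the test for a difference between G93A and WT, although all 9 signals were lower in the G93A pool than in the WT pool 7 d after injury, where 51.0% of all probes were. In cord tissue these changes cannot separate more cells of a type from more RNA per cell.

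**Figure D2:**
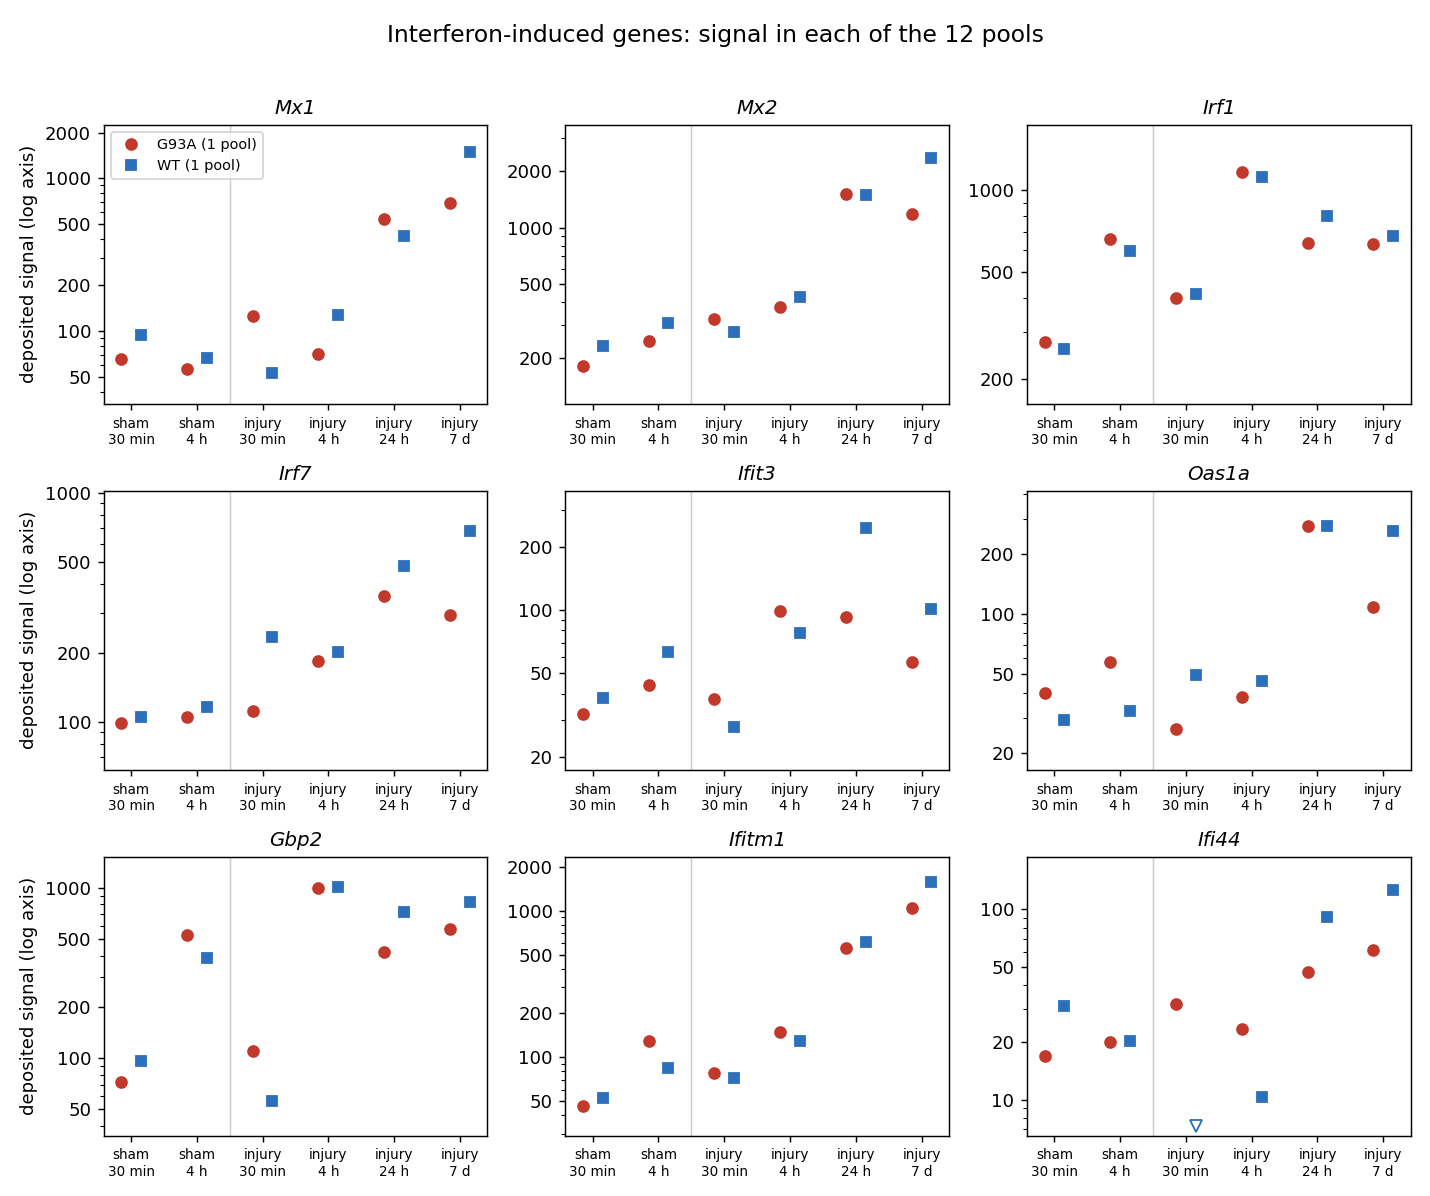
Deposited signal (log axis, a separate scale for each gene) of the 9 genes in each pool, with G93A pools as red circles left of WT pools as blue squares. Each point is 1 pool. The open triangle marks the Ifi44 signal of the WT pool 30 min after injury, which was below 0. Both pools of 24 h lie above every sham pool for all genes except Irf1 and Gbp2, whose highest signals are those of 4 h after injury.

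Among the effectors, Mx1 (probe ILMN_62633) had signals of 65.5 in G93A and 94.4 in WT pools 30 min after sham surgery and 56.1 and 66.3 at 4 h after it. After injury the G93A and WT signals were 125 and 53.1 at 30 min, 70.8 and 126 at 4 h, 544 and 417 at 24 h and 687 and 1501 at 7 d. The 4 pools of 24 h and 7 d were above the 8 others, with no overlap. The share of all probes with such a separation was not computed, here or for the other genes. By the looser rule of both pools above all 4 sham pools in normalized values, it was 26.3% at 24 h and 24.0% at 7 d. The log2 change against the sham pools was 2.05 ± 0.29 at 24 h (SE, adjusted p = 0.000983 by limma) and 3.24 ± 0.29 at 7 d (adjusted p = 3.33e-05).

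Mx2 (ILMN_53811) followed the same course. Its G93A and WT signals were 182 and 231 at 30 min and 246 and 308 at 4 h after sham surgery, then 323 and 277, 376 and 426, 1507 and 1502, and 1188 and 2369.8 at 30 min, 4 h, 24 h and 7 d after injury. The genotypes were nearly equal at 24 h, and all 4 late pools exceeded every earlier one. Mx2 changed by 2.84 ± 0.23 at 24 h and 3.05 ± 0.23 at 7 d (log2, SE), with adjusted p of 4.85e-05 and 1.46e-05 by limma.

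Ifitm1 (ILMN_47991) had the largest log2 change of the 9 genes at 7 d. Signals in G93A and WT pools were 46.4 and 52.8 at 30 min and 129 and 83.6 at 4 h after sham surgery, and 77.8 and 71.4, 147 and 129.5, 552 and 609, and 1035 and 1560.0 at the 4 times after injury. All late pools lay above all earlier ones, and both 7 d pools lay above both 24 h pools. The log2 change against sham was 2.29 ± 0.20 at 24 h (SE, adjusted p = 8.15e-05 by limma) and 3.55 ± 0.20 at 7 d (adjusted p = 3.44e-06). It was also the 1 gene of the 9 that passed the test between 7 d and 24 h, where 2.96% of all probes were called higher, with a log2 change of 1.26 ± 0.23 (SE, adjusted p = 0.0121 by limma). That last call was lost without a background model (adjusted p = 0.0509) and without the G93A pool of 24 h (adjusted p = 0.0991), the WT pool of 24 h (0.127) or the WT pool of 7 d (0.167). With 1 pool left out, other genes were called between 7 d and 24 h. Mx1 was called higher without the G93A pool of 7 d (log2 change 1.82, adjusted p = 0.0102) or without either pool of 30 min after injury (0.0200 and 0.0181). Ifit3 was called lower without the G93A pool of 24 h (log2 change -0.98, adjusted p = 0.00788), and Oas1a lower without the WT pool of 7 d (-1.02, adjusted p = 0.00695).

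Oas1a (ILMN_68688) had a higher G93A signal at 24 h than at 7 d. Its signals in G93A and WT pools were 40.02 and 29.0 and then 57.0 and 32.4 at the sham times, and 26.2 and 48.97, 37.9 and 45.7, 278 and 276, and 108 and 261 after injury. The 4 late pools stood above the 8 earlier pools, the G93A pool of 7 d by the smallest margin. The log2 change was 1.41 ± 0.19 at 24 h (SE, adjusted p = 0.000919 by limma) and 0.87 ± 0.19 at 7 d (adjusted p = 0.00952), and the call at 7 d was lost without the WT pool of 7 d (log2 change 0.39, adjusted p = 0.137).

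Ifit3 (ILMN_52894) passed the test at 24 h and not at 7 d. G93A and WT signals were 32.0 and 38.2 and then 43.8 and 63.5 at the sham times, and 38.0 and 27.9, 99.3 and 78.0, 93.1 and 246, and 56.8 and 101 after injury. The G93A pool of 7 d lay within the sham range, and the pools of 4 h after injury lay above all sham pools. The log2 change was 0.79 ± 0.17 at 24 h (SE, adjusted p = 0.0101 by limma), 0.36 with an adjusted p of 0.140 without the WT pool of 24 h (and 0.0544 for the full set without the intensity trend), and 0.24 ± 0.17 at 7 d (adjusted p = 0.380).

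Ifi44 (ILMN_58919) was the gene not detected in every pool. Signals were 16.95 in the G93A and 30.9 in the WT pool and 20.1 and 20.3 at the sham times, and 31.8 and -4.18, 23.6 and 10.3, 46.8 and 91.4, and 61.0 and 126 after injury. The late pools were again above all others. The log2 change was 0.31 ± 0.09 at 24 h (SE, adjusted p = 0.0419 by limma) and 0.42 ± 0.09 at 7 d (adjusted p = 0.00998). The call at 24 h was lost when any of 8 pools was left out (all 4 sham pools and the pools of 4 h and 24 h after injury, adjusted p between 0.0509 and 0.412), and that at 7 d without the WT pool of 7 d (adjusted p = 0.238). The call at 24 h was also lost without the intensity trend (0.132), without a filter (0.0745) and with the series matrix (0.0979), and that at 7 d without the trend (0.0568).

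Of the regulators, Irf7 (ILMN_49019) had G93A and WT signals of 98.8 and 105 and then 105 and 117 at the sham times, and 112 and 234, 185 and 203, 356 and 479, and 293 and 682 at 30 min, 4 h, 24 h and 7 d after injury. Its late pools did not overlap the others. The log2 change was 1.63 ± 0.28 at 24 h (SE, adjusted p = 0.00288 by limma) and 1.81 ± 0.28 at 7 d (adjusted p = 0.00124). Without the WT pool of 24 h the adjusted p at that time was 0.0540.

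Irf1 (ILMN_53085) had a different time course. Signals in G93A and WT pools were 273 and 259 at 30 min and 660.1 and 593 at 4 h after sham surgery, and 399 and 412, 1164 and 1115, 638 and 801, and 630.0 and 674 after injury. Both pools of 4 h after injury were above every other pool, and the sham pools of 4 h overlapped the injury pools of 24 h and 7 d. The log2 change between the sham times, 4 h against 30 min, was 1.37 ± 0.20 (SE, adjusted p = 0.0523 by limma), and that of injury against sham was 0.80 ± 0.20 at 30 min (adjusted p = 0.626) and 0.88 ± 0.20 at 4 h (adjusted p = 0.122).

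Gbp2 (ILMN_63085) resembled Irf1 in this. Its G93A and WT signals were 72.8 and 95.7 at 30 min and 530.4 and 387 at 4 h after sham surgery, and 111 and 56.0, 991 and 1016, 418 and 719, and 570.3 and 828.6 after injury. Every pool of 4 h or later, sham included, was above every pool of 30 min. The log2 change between the sham times was 1.85 ± 0.30 (SE, adjusted p = 0.0841 by limma) and that of injury at 4 h against its sham 1.19 ± 0.30 (adjusted p = 0.171).

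None of the 9 genes passed the threshold in any of the 3 early comparisons, where 0.0508% of probes were called between the sham times, 0.138% for injury at 30 min and 0.551% at 4 h. At an unadjusted p under 0.05, 2 of the 9 genes passed between the sham times, 2 at 30 min and 2 at 4 h after injury, against 2.16%, 6.45% and 5.78% of all probes. When the background noise was read directly from the detection p-values, Irf1 and Gbp2 were both called between the sham times (log2 changes 1.25 and 2.34, adjusted p = 0.0281 and 0.0132 by limma). Without the WT pool of 30 min after injury, both were called between the sham times (adjusted p = 0.00503 and 0.0113) and 4 h after injury (0.0208 and 0.0420). Leaving out its G93A partner instead takes the same pair out of the residual spread, so it is no separate check. The log2 changes between the sham times and at 4 h were the same in both runs. Irf1 then changed by 0.89 at 30 min after injury, where only the WT pool was left.

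Taking the mean of all 4 sham pools as baseline, the median log2 change of the 9 was 1.41 at 24 h and 1.66 at 7 d, against -0.01 for all probes at both times. In normalized values, both pools were above all 4 sham pools for 8 of the 9 genes at 24 h (all but Gbp2) and 8 at 7 d (all but Ifit3), against 26.3% and 24.0% of all probes. No sham pools of 24 h or 7 d were analysed here, so time since surgery and injury cannot be told apart in these changes. Irf1 changed by 0.93 ± 0.17 at 24 h (log2, SE, adjusted p = 0.00473 by limma) and 0.85 ± 0.17 at 7 d (adjusted p = 0.00634), and Gbp2 by 1.27 ± 0.26 (adjusted p = 0.00714) and 1.66 ± 0.26 (adjusted p = 0.00135). Against the sham pools of 4 h alone, Irf1 changed by 0.25 at 24 h (adjusted p = 0.473) and 0.17 at 7 d (0.654), and Gbp2 by 0.34 (0.506) and 0.74 (0.135). Without the WT pool of the same time, the adjusted p of Irf1 was 0.122 at 24 h and 0.117 at 7 d, and that of Gbp2 0.183 and 0.0579. Ifi44 also lost its call at 24 h in the 4 h sham comparison (adjusted p = 0.0874). Calls of Mx1, Mx2 and Ifitm1 at both times were kept in every alternative run, those that left out each pool in turn included.

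Changes of dim probes were larger under another background model. With noise read from the detection p-values, the log2 change at 24 h was 1.73 for Ifit3, 2.61 for Oas1a and 1.36 for Ifi44, and at 7 d it was 1.93 for Oas1a and 1.61 for Ifi44. The same 9 and 8 genes were called under that setting. For Mx2 the values were 2.67 at 24 h and 2.87 at 7 d.

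The summed signal of 8 tested macrophage and microglia markers was 2119.9 to 2473 in the 4 sham pools. It was 5339.8 in the G93A and 4718 in the WT pool at 24 h, and 11813 and 14763 at 7 d. Most of the 7 d sum came from Aif1 (6832 and 7229) and Cd68 (3782 and 6364). Of these 8 markers, 4 were called higher at 24 h and 6 at 7 d, and 0 lower, where 11.4% of all probes were called higher. Cd68, a lysosomal protein of phagocytes, changed by 3.06 and 5.25 on the log2 scale. P2ry12 had G93A and WT signals of 29.9 and 39.2 at 24 h, against 81.6 to 172 in the sham pools, and 322 and 304 at 7 d. Those of Tmem119 were 6.11 and 11.8 at 24 h and 3.53 and 11.3 at 7 d, against 11.3 to 27.9 in the sham pools. Of 5 neuron markers, 3 were called lower at 24 h and 5 at 7 d, where 9.37% and 9.63% of all probes were. Their part in the rise of the interferon-induced genes was not tested.

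Other genes of the pathway came from lists of 89 genes, of which 63 were on the array and 48 were tested. Of these 48, 19 were called higher and 0 lower at 24 h, and 22 higher and 0 lower at 7 d, with median log2 changes of 0.18 and 0.33. Over all probes 11.4% were called higher at each time, and 9.37% were called lower at 24 h and 9.63% at 7 d. The 19 at 24 h include Oas1k, which was detected in 2 of the 12 pools. Its highest signals were those of the 24 h injury pools, 22.5 in G93A and 9.92 in WT. The filter may have kept it only through that group, so its call there is no support. Against the 4 h sham pools alone, 12 of the 48 were called higher at 24 h and 20 at 7 d, and 0 lower. For that baseline 962 of all 13793 probes were called higher at 24 h and 1165 at 7 d, and 570 and 737 lower. Interferon ligands (Ifna2, Ifna4, Ifna5, Ifnb1, Ifnk and Ifng) were each detected in at most 1 of the 12 pools and none was tested. Among 5 tested receptor genes, 2 were called higher at 24 h and 3 at 7 d, where Il10rb, a subunit shared by the receptors of lambda interferons and interleukin 10, changed by 1.87 ± 0.19, Ifngr1 by 1.52 ± 0.20 and Ifngr2 by 1.35 ± 0.18 (log2, SE). For Ifnar1 the change at 7 d was -0.04 ± 0.04 (adjusted p = 0.453 by limma). Neither of 2 tested receptor kinases was called, the change at 7 d being -0.82 ± 0.45 for Jak1 (adjusted p = 0.235).

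Among 4 other interferon regulatory factors, 1 was called at 24 h and 3 at 7 d. Irf5, which acts below endosomal nucleic acid sensors, changed by 2.08 ± 0.16 at 7 d (log2, SE), Irf3 by 0.89 ± 0.29 (a call lost against the 4 h sham pools alone, adjusted p = 0.0558) and Irf8, a factor of microglia and macrophages, by 0.20 ± 0.04. Of 9 sensors and adaptors, 4 were called higher at 24 h and 5 at 7 d. Zbp1, a sensor of left-handed nucleic acid, changed by 1.65 ± 0.21 at 7 d, Tlr7, an endosomal receptor of single-stranded RNA, by 1.07 ± 0.08, and the RNA helicase Dhx58 by 0.86 ± 0.17. Ifih1, the sensor of long double-stranded RNA, was called at 24 h (1.08 ± 0.26) and not at 7 d (0.39 ± 0.26, adjusted p = 0.337 by limma).

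Of 18 other induced effectors, 9 were called higher at 24 h, Oas1k included, and 9 at 7 d. Isg15 was detected in 0 of the 12 pools and Ifit2 in 1, so neither was tested. Ifit1, Bst2, Igtp and Gbp5 were tested and called at neither time. Ifi30, a lysosomal thiol reductase, changed by 1.75 ± 0.27 at 24 h and 2.96 ± 0.27 at 7 d (log2, SE), and Ifi47, an immunity-related GTPase, by 1.42 ± 0.22 and 2.38 ± 0.22. Sp110, a nuclear body protein, changed by 2.01 ± 0.23 and 2.18 ± 0.23, and Lgals3bp, a secreted glycoprotein, by 1.34 ± 0.22 and 2.34 ± 0.22. The chemokine Cxcl11, which draws T cells, was called between the sham times (2.59 ± 0.37, adjusted p = 0.0451 by limma) and at 24 h (1.20 ± 0.32, adjusted p = 0.0230), and Cxcl9 at 7 d (0.89 ± 0.11, adjusted p = 0.000312). The signals of Cxcl11 were 378 in the G93A and 831 in the WT pool at 24 h, against 735 and 513 at 4 h and 21.7 and 29.4 at 30 min after sham surgery, and its change at 24 h against the 4 h sham pools alone was -0.09 (adjusted p = 0.904). Among 7 brakes on the signalling, Ptpn6, a phosphatase of leukocytes, was called at 24 h (1.73 ± 0.32) and 7 d (2.62 ± 0.32), Ptpn2 at 24 h alone (1.13 ± 0.17), and Socs3 4 h after injury (0.26 ± 0.04, adjusted p = 0.0119).

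**Figure D3:**
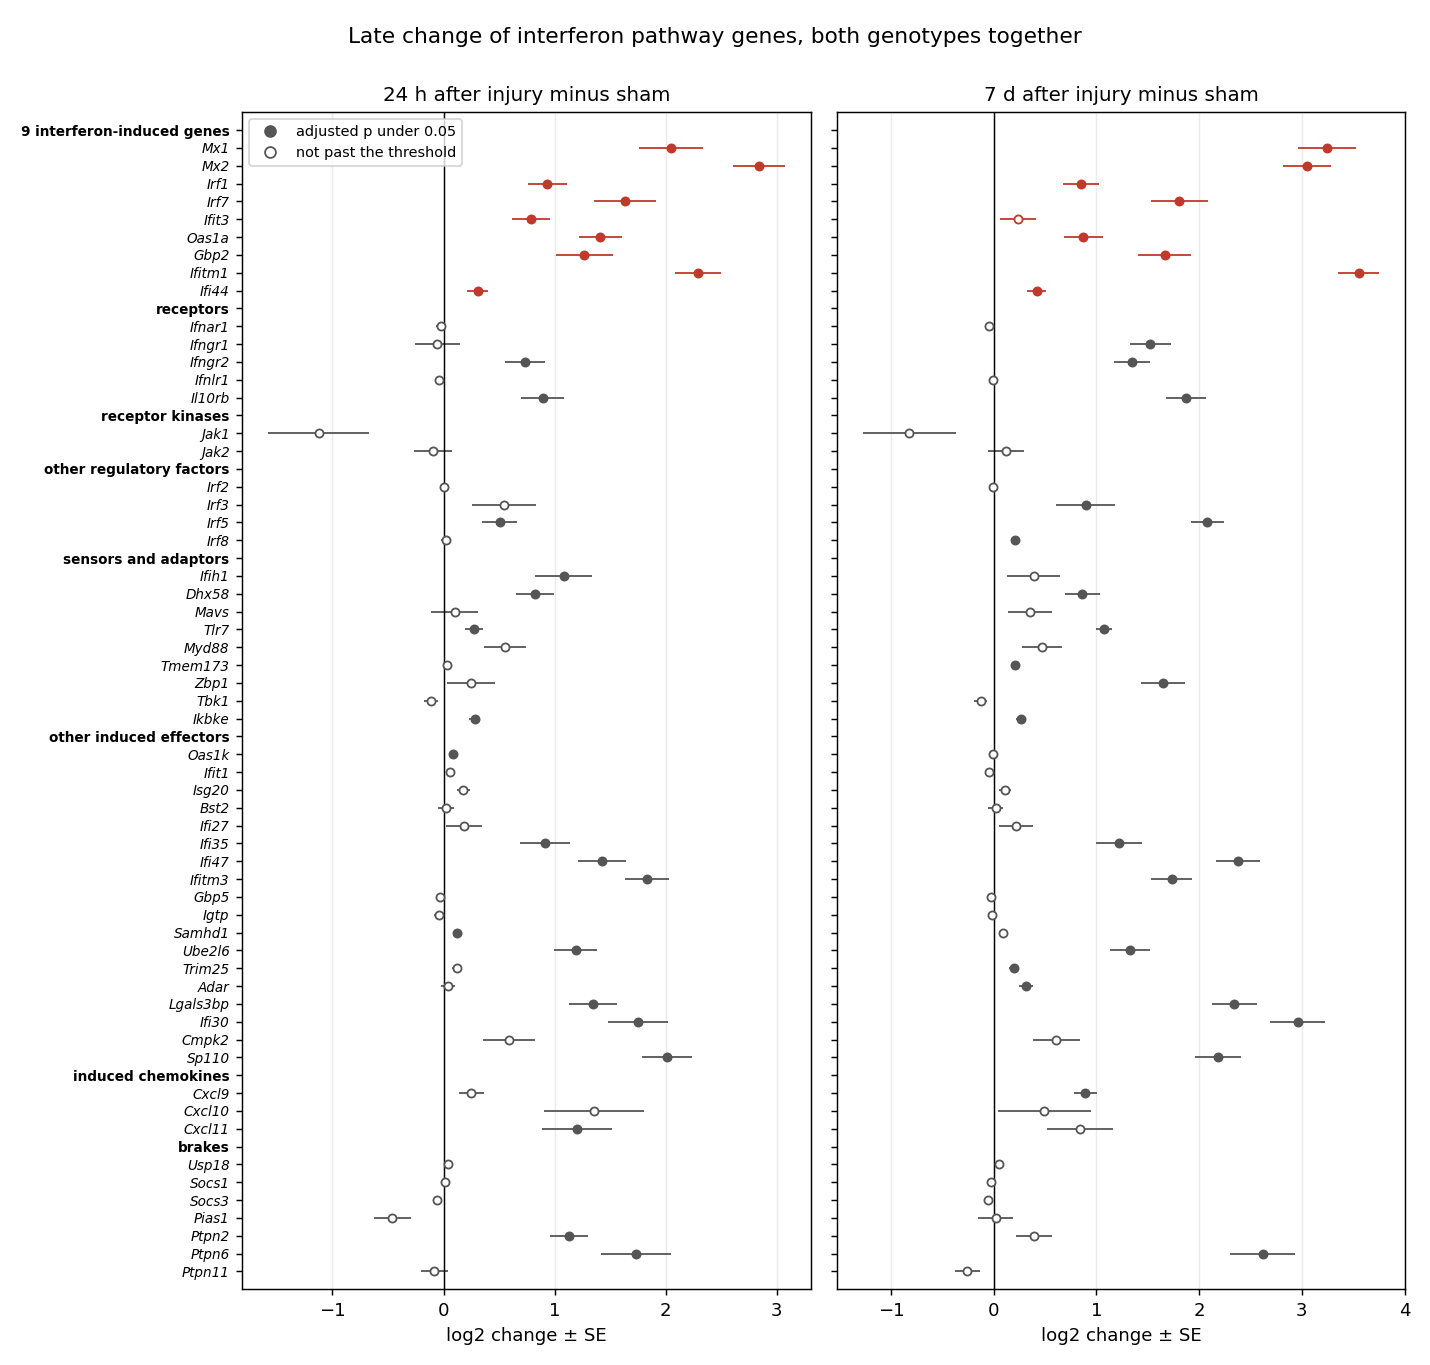
Log2 change ± SE at 24 h (left) and 7 d (right) after injury against the mean of the 4 sham pools, both genotypes together, for the 9 interferon-induced genes (red) and 48 other tested genes of the pathway (grey), grouped by role. Filled points passed an adjusted p of 0.05. All 9 red points are filled at 24 h and all but Ifit3 at 7 d, and no pathway gene was called lower.

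By the Pearson correlation of log2 values over the 12 pools, the named genes most like Irf7 were Plod3 (r = 0.97), Psmb8 (0.97), C3ar1 (0.97), Dhx58 (0.97) and Fam174c (0.97), and those most like Irf1 were Mt1 (0.95), Sbno2 (0.94), Gch1 (0.94), Myd88 (0.93) and Upp1 (0.93). The 12 pools share their times and operations, so these values describe a common course over the conditions.

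The study's comparison of mutant and wild-type cord was made over the 6 pairs of pools. No probe of the array was called between genotypes (0 of 13793, or 0%, by limma, with 316 probes at an unadjusted p under 0.05), and none of the 9 genes was called. Their mean G93A minus WT differences were all negative, between -0.48 for Irf7 and -0.08 for Ifitm1, with an adjusted p of 0.979 for each, and their median was -0.16. Without either pool of 7 d the differences of Mx1 (0.0543) and Ifitm1 (0.0318) turned positive and that of Oas1a was -0.00743. Irf7 was lower in G93A in 5 of 6 pairs and had an exact sign-flip permutation p of 0.0625 (two-sided), the smallest of the 9 genes, where 6 pairs allow no less than 0.03125. For the 8 others, 3 or 4 of 6 pairs were lower in G93A, and the exact p ranged between 0.125 and 0.6875.

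By their median, the 9 genes differed most in the pair of 7 d after injury. All 9 genes had a lower signal in the G93A pool, where 51.0% of all probes did so in log2 value, and 3 were at least 2-fold lower, against 0.239% of all probes. The log2 differences were -1.36 for Irf7, -1.19 for Mx1, -1.05 for Mx2, -0.97 for Oas1a, -0.63 for Ifitm1, -0.61 for Gbp2, -0.41 for Ifi44, -0.29 for Ifit3 and -0.15 for Irf1. Their median was -0.63, and 95% of all probes lay between -0.50 and 0.60. With noise read from the detection p-values, 4 genes were at least 2-fold lower, Oas1a (-1.25) being the added one. The share of all probes past 2-fold was not computed under that setting, and the 0.239% does not apply to it. With 1 pool against 1 these differences have no replicate and no test.

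At 24 h, 7 of the 9 genes were lower in the G93A pool, where 51.1% of all probes were, led by Ifit3 (-0.91) and Gbp2 (-0.82), while Mx1 was 0.43 higher. In the 30 min sham pair 8 of the 9 were lower (50.5% of all probes), with a median of -0.07, or -0.30 with noise read from the detection p-values, and in each of the other 3 pairs 4 of the 9 were, where 48.6% to 49.5% of all probes were. In the pair of 30 min after injury the G93A minus WT difference of Irf7 was -0.92 on the log2 scale, and 95% of all probes lay there between -1.13 and 1.21.

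**Figure D4:**
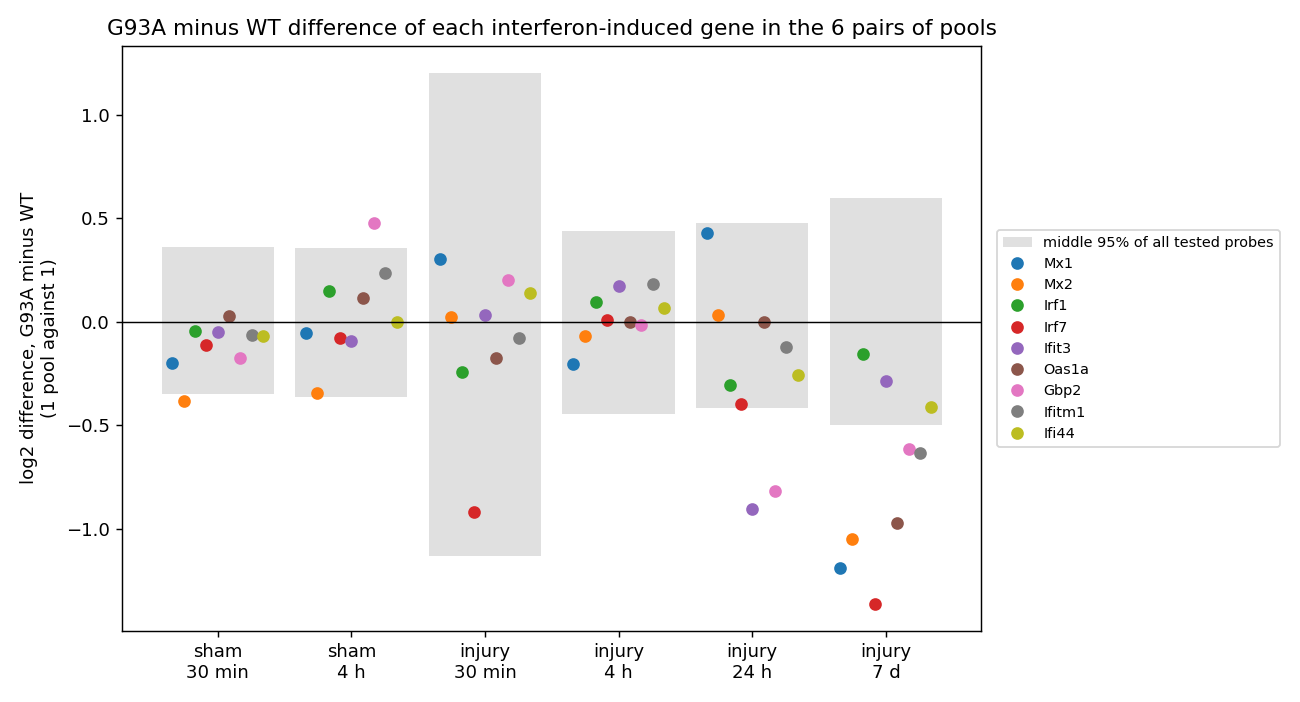
Log2 difference, G93A minus WT, of each of the 9 genes (coloured points) in each of the 6 pairs of pools, with the middle 95% of all tested probes as a grey band. Points below 0 are lower in G93A. At 7 d all 9 points are below 0 and 6 of them are below the band.

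Whether the genotype difference at 24 h and 7 d differed from that in the other 4 pairs was tested as an interaction. All 9 estimates were negative, between -0.84 for Gbp2 and -0.22 for Irf1, and none was called (adjusted p = 0.998 by limma), as was no other probe (0%). At an unadjusted p under 0.05 were 3 of the 9, Ifi44 (-0.37 ± 0.08, SE), Ifit3 (-0.61 ± 0.17) and Gbp2 (-0.84 ± 0.27), against 4.08% of all probes. Without either pool of 7 d, the estimates of Mx1 (0.47), Mx2 (0.23) and Oas1a (0.01) turned positive.

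Some cell markers also differed in the same 7 d pair, where 51.0% of all probes were lower in the G93A pool. All 5 neuron markers were higher in the G93A pool, by 0.74 to 0.99 on the log2 scale, with a summed signal of 16445 in G93A and 8014 in WT. All 5 were also higher in G93A at 30 min and 24 h after injury, all 5 were lower at 4 h, and the sham pairs were mixed. In the 7 d pair all 3 astrocyte markers were higher in G93A, by 0.14 to 0.80. All 3 endothelium markers were higher by only 0.01 to 0.07, with sums of 4282 in G93A and 4250 in WT. Of 4 skeletal muscle markers 3 were higher, with a median log2 difference of 0.02. All 3 erythrocyte markers were lower, by 0.03 to 0.26, and 3 of 4 oligodendrocyte markers were, with a median of -0.29. Macrophage and microglia markers summed to 11813 in G93A and 14763 in WT, of which Cd68 had 3782 and 6364. Of these 8, 5 were lower and 2 higher in G93A, with a median log2 difference of -0.03. Lymphocyte markers summed to 284 in G93A and 488 in WT, of which Cd8a had 90.6 and 248, and of 8, 5 were lower and 3 higher in G93A. Neutrophil markers summed to 453 in G93A and 106 in WT, of which S100a8 had 375 and 39.3, and of 7, 4 were lower and 3 higher in G93A. The 18 other interferon-induced effectors summed to 12887 in G93A and 18143 in WT. The largest signals in these sums were those of Ifi27 (4561 and 6624) and Ifitm3 (2953 and 4249). Of the 18, 16 were lower in G93A, where 51.0% of all probes were, with a median log2 difference of -0.17. The part of these cell types in the differences of the 9 genes was not tested.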

How the data were processed

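Intensity values were deposited by the authors as background-subtracted bead signals of 12 arrays, read in BeadStudio 3.2.6 (submitters' processing notes). Per the file headers, each signal has its own detection p-value beside it, as the authors deposited it. Array means of 324.9 to 326.9 leave an earlier scaling possible. The authors' series matrix gives the same intensities after a linear transformation on each array.

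Deposited probe identifiers stand beside values of other probes, as inferred from the data and not stated by the authors. They were sorted as text before joining, after which receptors of smell (1271 probes) were detected on 6.08% of arrays and ribosome and proteasome genes (100 probes) on 91.8%, against 51.8% and 54.7% as deposited. Gene names come from GEO's platform annotation, which gave 1 symbol to 13192 probes, several to 0 and none to 9034.

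Normalization used limma 3.58.1 under R 4.3.3, namely its neqc function (offset 16, quantile). Probes with a detection p-value under 0.05 on at least 2 arrays were kept (13793, of which 9423 named). The noise SD that neqc inferred was 81.4 to 134 units per array, against 4.61 to 17.2 read directly at the detection p-values, so changes of dim probes are understated. The label of the WT pool of 24 h has a stray word beside its time and was read as 24 h. A fit with the directly read noise was added after seeing the data. The limma model held 6 conditions and genotype with an intensity trend (5 residual degrees of freedom, 4 for the interaction), and p-values were adjusted over all tested probes within each of 8 contrasts. It was tested on simulated data. The members, pathway lists and marker lists were chosen with earlier results of these data known. Genes given with values were, per list, up to 4 of the largest changes past the threshold, or the largest where none passed, and for likeness the 5 highest correlations. Socs3, Ifih1, Ifnar1, Oas1k, Isg15, Ifit2, Ifit1, Bst2, Igtp, Gbp5, Ifi27 and Ifitm3 were added after their values were seen. Alternatives were another background model, the series matrix, filters on dim probes, no trend, the 4 h sham pools alone and leaving out each pool. Each gene had 1 probe, so averaging probes changed nothing.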

Additional observations from a re-analysis of the deposited data

Results flagged for a closer look

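Among the 6 G93A minus WT differences of Oas1a, that of 7 d after injury was -0.97 and lay far below the other 5 by Dixon's test. With noise read from the detection p-values, the difference was -1.25 at 7 d and -0.90 at 30 min after injury, and it no longer passed Dixon's test. This was 1 result in 18 tests, and chance alone gives about 1 in 20. The 18 tests are the 9 genes under the main background model and again with noise read from the detection p-values. They use the same pools, so they are not independent.

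Mx2 and Irf7 moved in opposite directions between 24 h and 7 d after injury in the 2 genotypes. The log2 change was -0.33 in G93A and 0.75 in WT for Mx2, and -0.31 in G93A and 0.66 in WT for Irf7. Each value compares 1 pool with 1 pool, and the difference between genotypes was not tested.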

How the results depend on the processing

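Of 963 values of the 9 genes recomputed under alternatives, 901 kept their direction and side of the threshold, 30 lost a call, 19 gained one and 13 changed sign, each of those 13 when 1 pool was left out. Not every gene entered for every contrast. Between the sham times only Irf1 and Gbp2 did, and for injury at 30 min and 4 h only these with Mx2 and Irf7. Between 7 d and 24 h Irf1, Gbp2 and Ifi44 were left out. Over all probes, 7 were called between the sham times, against 4 without the intensity trend, 28 without a background model, 4 without a filter, 24 with noise from the detection p-values and 11 with the series matrix. For injury at 30 min 19 probes were called, against 6 without the trend. At 4 h it was 76, against 14 without the trend, 46 without a background model and 30 with the series matrix. Against the 4 h sham pools alone, 1532 probes were called at 24 h and 1902 at 7 d, instead of 2870 and 2899. Between 7 d and 24 h the count of 624 became 391 without a background model and 267 with the series matrix. Leaving out each pool gave 2 to 27 calls between the sham times, 0 to 4206 for injury at 30 min, 0 to 236 at 4 h, 469 to 5058 at 24 h, 640 to 4910 at 7 d, 136 to 1498 between 7 d and 24 h, 0 to 0 for genotype and 0 to 10 for the interaction. With each pool left out, log2 changes ranged from -0.16 to 0.27 for Gbp2 at 30 min after injury, and between 7 d and 24 h from -0.24 to 0.66 for Mx2 and -0.36 to 0.70 for Irf7. G93A minus WT ranged from -0.27 to 0.0543 for Mx1 and -0.14 to 0.0318 for Ifitm1, and the interaction from -1.15 to 0.47 for Mx1, -0.86 to 0.23 for Mx2 and -0.96 to 0.00727 for Oas1a. The cause of these shifts was not tested. Where only 1 pool of a condition remained, its spread was taken to equal that elsewhere. No pairing finer than the condition was possible because each genotype and condition has 1 pool.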
